A study of Rattus norvegicus with 8 samples.

Results

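The BCL2 family of apoptosis regulators was followed through 10 genes in rat left ventricle: Mcl1, Bcl2 and Bcl2l1, which protect cells, and Bax, Bak1, Bcl2l11, Bid, Bad, Pmaip1 and Bbc3, which promote their death. Every probe set was taken whose platform annotation gave exactly 1 gene symbol equal to one of these names. This gave 13 of the 28826 probe sets on the array. A single probe set stood for 7 of the genes, while Mcl1, Bcl2l1 and Bax had 2 probe sets each. All 10 genes were represented and no probe set was removed by a filter.

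Proteins of this family meet at the outer mitochondrial membrane. Bax and Bak1 can open pores in it and release cytochrome c, which starts the caspases; the protective members bind and restrain them. The third branch, named after the BH3 segment it shares with the rest of the family, holds sensors such as Bid and Pmaip1 that bind the protective members or activate the pore formers. In the heart, this balance is known to decide part of the loss of muscle cells when blood flow returns after ischemia. Mcl1 is a short-lived protein that cardiomyocytes need continuously, and Pmaip1, also called NOXA, binds it with preference.

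The hearts came from female rats in late pregnancy, per the series title and design, and all of them had undergone ischemia, a stop of the blood supply, and then reperfusion. A vehicle accompanied reperfusion in the placebo group (3 arrays). The other group (5 arrays), labelled ILPD, received 1 bolus of 5 mg/kg of the agent that the design abbreviates as ITLD, taken here as the lipid emulsion Intralipid of the title. Strain, age, the length of ischemia and the time of sampling are not given in the sources used here, and no heart spared ischemia is part of this comparison. No label says that replicates were separate animals, so the tests gauge only how far these arrays scatter, part of which may be technical. The 11 ventricular cardiomyocyte markers examined all lay at or above the percentile 95.5 of mean signal. The values are log2 signals with array medians from 7.08 to 7.20. Precision is limited by having 3 placebo arrays.

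The starts of Mcl1 and Pmaip1 are shown first, because these 2 genes were the members whose leading probe sets passed the test and they moved in opposite directions. The sequences are the RefSeq bases that precede each start in build GRCr8, read 5′ to 3′ on the strand of the gene (plus for both). Capitals mark matches to a set of motifs searched on both strands.
Mcl1, chr2:185907918-185908167: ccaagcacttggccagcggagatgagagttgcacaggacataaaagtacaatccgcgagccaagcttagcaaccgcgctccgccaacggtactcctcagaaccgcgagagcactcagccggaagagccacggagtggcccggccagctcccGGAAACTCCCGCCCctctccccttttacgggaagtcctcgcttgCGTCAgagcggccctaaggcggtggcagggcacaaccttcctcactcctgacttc
Pmaip1, chr18:62255720-62255969: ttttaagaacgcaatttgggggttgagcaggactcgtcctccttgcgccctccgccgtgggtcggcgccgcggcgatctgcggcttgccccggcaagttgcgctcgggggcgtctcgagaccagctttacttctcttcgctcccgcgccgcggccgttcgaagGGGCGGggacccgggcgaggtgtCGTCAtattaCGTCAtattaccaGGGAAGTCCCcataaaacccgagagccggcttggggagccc
The table of starts held 8 of the 10 members in 11 windows, with no window for Bax and Bbc3. In Mcl1 the capitals cover a match to the NF-kB consensus on the opposite strand from -99 to -90, an overlapping GC box (GGGCGG) on the same strand as that match from -91 to -86, and TGACG, the core of the cAMP response element, also on the opposite strand, from -55 to -51. In Pmaip1 they cover a GC box from -87 to -82 on the strand shown, and, on the opposite strand, TGACG from -64 to -60 and from -54 to -50 and an NF-kB match from -41 to -32. Positions count back from the first transcribed base of the listed start, and -1 is the base before it. For Mcl1 that start is 185908168, while the annotated gene begins upstream at 185884840, so the window shown lies inside the annotated gene. For Pmaip1 the listed start and the first base of the annotated gene are both 62255970. Over all 33469 windows of the same 250 bases, 3.54% held the NF-kB consensus, 18.2% TGACG and 30.5% the GC box. The heat shock motifs GAANNTTC and TTCNNGAA occurred in none of the 11 member windows and in 13.5% of all windows. TATAAA (12.9% of all windows) was found for Bcl2, CCAAT (34.0%) for Bcl2l1 and Bcl2l11, and the STAT motif TTCNNNGAA (7.67%) for Bad and for 2 of the 4 listed starts of Bcl2l1. These matches describe letters and were not tested as binding sites.

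Members on both the protective and the death-promoting side passed the test. Mcl1 fell by 0.54 on the log2 scale (1.46-fold lower, on 1 of its 2 probe sets), Pmaip1 rose 1.33-fold, and Bcl2l1 rose 1.36-fold by one of its probe sets, while neither pore former passed the test. In whole tissue a fall can mean fewer cells that make a transcript or less of it per cell, and these cannot be told apart. With the probe set of highest mean signal standing for each gene, 1 of 10 genes rose and 1 fell at an adjusted p of 0.05 in limma. Over all 14497 named genes the same rule called 2.29% as higher and 1.17% as lower in ILPD. Counted as probe sets, 2 of 13 rose and 1 fell, against 1.96% and 0.857% of all probe sets. The same 3 probe sets were the ones without overlap between groups, 2 higher and 1 lower, where all probe sets gave 7.95% and 4.42%.

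**Figure D1:**
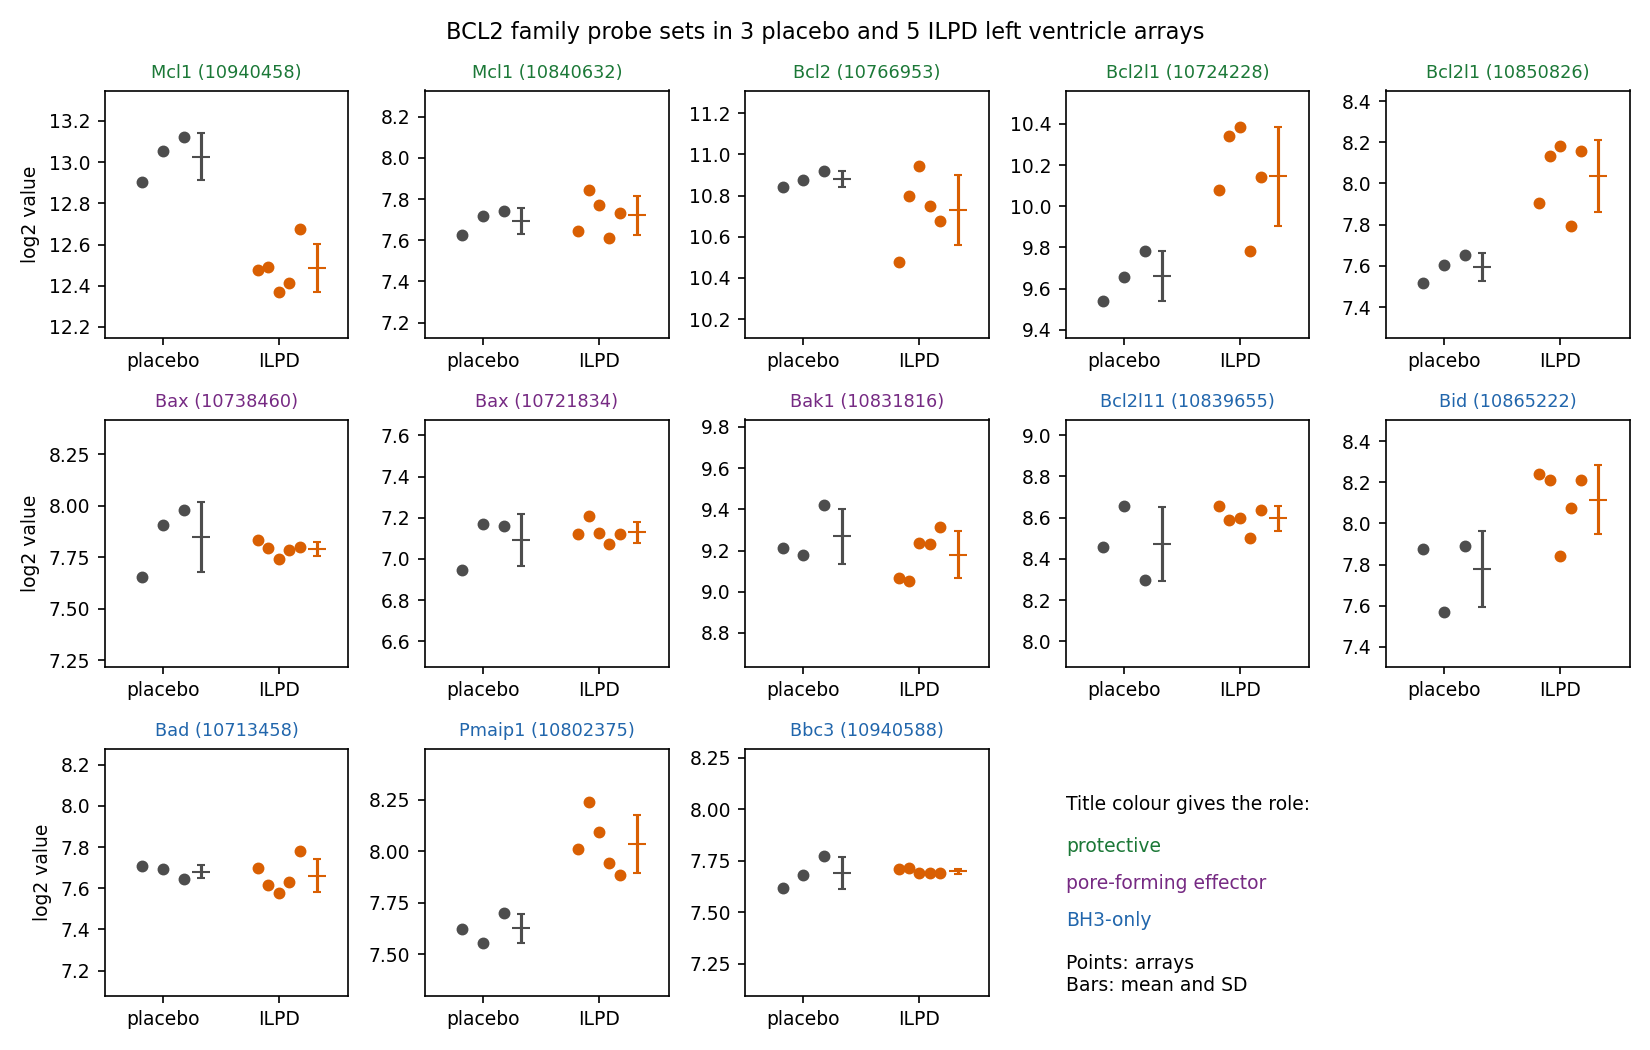
Log2 value (vertical axes, all spanning the same width) of the 13 probe sets in every placebo (grey) and ILPD (orange) array, with the mean and SD of each group beside the points. Groups are apart for Mcl1 (10940458), Bcl2l1 (10850826) and Pmaip1 (10802375), and overlap for the other 10 probe sets.

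Among the protective members, Mcl1 was the one whose brighter probe set passed. That brighter probe set (10940458) gave 12.90, 13.05 and 13.12 in placebo arrays 1 to 3 and 12.47, 12.49, 12.37, 12.41 and 12.67 in ILPD arrays 1 to 5. Every ILPD array lay below every placebo array, with 0.23 between the nearest pair. Means were 13.03 ± 0.11 (SD, n = 3) and 12.48 ± 0.12 (SD, n = 5), so the log2 value fell by 0.54 (limma, SE 0.08, adjusted p = 0.0102). The 95% interval ran from -0.72 to -0.37, a 1.46-fold difference with bounds of 1.29 and 1.65. Probe sets this bright tended to be lower in ILPD. Among the 367 probe sets within 0.5 log2 units of its mean, the median difference was -0.15. Further normalization left a smaller fall of Mcl1, 0.40 after quantile normalization (adjusted p = 0.0215) and 0.37 after cyclic loess (adjusted p = 0.0332). The call was lost without placebo array 2 (adjusted p = 0.0547) or placebo array 3 (adjusted p = 0.0507), where the differences were -0.53 and -0.49.

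The other Mcl1 probe set (10840632) did not show the fall. Its values were 7.62, 7.72 and 7.74 in placebo and 7.65, 7.85, 7.77, 7.61 and 7.73 in ILPD, and the groups overlapped. The difference was 0.03 (SE 0.07, 95% interval -0.12 to 0.17, adjusted p = 0.885). Within each array the gap between both Mcl1 probe sets was 5.28 to 5.38 in placebo and 4.60 to 4.94 in ILPD. That change of -0.57 had an exact permutation p of 0.0179, two-sided, the smallest that 56 splits can give. Both probe sets are annotated with the same RefSeq transcript, NM_021846, and across the 8 arrays their values correlated at -0.0355 (0.350 with group means removed). The change in the gap was -0.35 after quantile normalization and -0.34 after cyclic loess. The fall of Mcl1 therefore rests on 1 of its 2 probe sets, and with the mean of both in its place Mcl1 was not called.

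Bcl2l1, which encodes the protective protein BCL-XL, was higher in ILPD on both of its probe sets. The annotation gives RefSeq transcripts for the dimmer probe set and none for the brighter. The brighter one (10724228) gave 9.54, 9.66 and 9.78 in placebo and 10.08, 10.34, 10.38, 9.78 and 10.14 in ILPD. ILPD array 4 lay at the level of placebo array 3 and the other 4 ILPD arrays lay above all placebo arrays. The difference was 0.48 (SE 0.13, 95% interval 0.20 to 0.77) and missed the threshold (adjusted p = 0.0750). The dimmer one (10850826) gave 7.52, 7.61 and 7.65 in placebo and 7.91, 8.13, 8.18, 7.79 and 8.16 in ILPD, with no overlap. It rose by 0.44 (SE 0.10, 95% interval 0.23 to 0.65, adjusted p = 0.0424). Over the 8 arrays both probe sets had r = 0.962, and r = 0.900 for the deviations from the group means, as a description. Their differences were 0.04 apart (exact permutation p = 0.571), but 0.17 apart after quantile normalization or cyclic loess (exact permutation p = 0.0536 each), so how closely they match depends on the scaling.

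The call of Bcl2l1 moved between its probe sets with the setting. The dimmer probe set passed in 6 of 14 alternatives and reached adjusted p = 0.137 without placebo array 1. It missed the threshold without any 1 of the placebo arrays, without ILPD array 2, 3 or 5, and after quantile normalization or cyclic loess. The brighter probe set passed in 4 of 14. Its lowest adjusted p in limma was 0.0235, under the replicate block, which leaves ILPD arrays 4 and 5 out of the difference. It was 0.0264 without ILPD array 4, and at its highest, 0.230, without placebo array 1. The difference was positive in all 14 alternatives for both probe sets, from 0.37 to 0.50 for the dimmer and from 0.42 to 0.61 for the brighter.

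Bcl2, the founding protective member, had 1 probe set (10766953) and overlapping groups. Placebo arrays read 10.84, 10.87 and 10.92, and ILPD arrays 10.48, 10.80, 10.94, 10.75 and 10.68. ILPD array 3 was the highest of all 8 and the other 4 ILPD arrays were below the placebo arrays. The difference of -0.15 (95% interval -0.35 to 0.05) did not pass (adjusted p = 0.434). The 3 protective members thus gave 1 fall, 1 positive difference that passed on the dimmer probe set alone, and 1 small negative difference.

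The pore formers differed little between groups. Bax had -0.06 (95% interval -0.22 to 0.11, adjusted p = 0.749) on its brighter probe set (10738460) and 0.04 (95% interval -0.11 to 0.18, adjusted p = 0.822) on the other (10721834). Placebo arrays spread wider than ILPD arrays on the brighter one, from 7.66 to 7.98 against 7.74 to 7.84. Bak1 (10831816) ran from 9.18 to 9.42 in placebo and from 9.05 to 9.31 in ILPD, with a difference of -0.09 (95% interval -0.27 to 0.09, adjusted p = 0.621).

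Of the BH3-only sensors, Pmaip1 rose. Its probe set (10802375) gave 7.62, 7.56 and 7.70 in placebo and 8.01, 8.24, 8.09, 7.94 and 7.88 in ILPD. All ILPD arrays lay above all placebo arrays, the nearest pair 0.18 apart. Means were 7.63 ± 0.07 (SD, n = 3) and 8.03 ± 0.14 (SD, n = 5), a rise of 0.41 (SE 0.08, 95% interval 0.22 to 0.59, limma adjusted p = 0.0332). That is 1.33-fold with bounds of 1.17 and 1.51. The call held in 7 of 14 alternatives and was lost without any of the placebo arrays (0.0982, 0.126 and 0.0799 without arrays 1, 2 and 3). It was also lost without ILPD array 3 (0.0663) or 4 (0.0508), and after quantile normalization (0.0598).

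Bid, which links death receptors to the mitochondrion once caspase-8 has cut it, was the next highest of the sensors. Its probe set (10865222) gave 7.88, 7.57 and 7.89 in placebo and 8.24, 8.21, 7.84, 8.08 and 8.21 in ILPD. ILPD array 3 fell within the placebo range and the other 4 were above it. The difference of 0.34 (SE 0.11, 95% interval 0.10 to 0.58) did not pass the test (adjusted p = 0.133), and the adjusted p was lowest, 0.0600, without ILPD array 3. Bcl2l11, which encodes the sensor BIM, had a difference of 0.13 (95% interval -0.05 to 0.30, adjusted p = 0.452). Bad, a sensor silenced by survival kinases, had -0.02 (-0.15 to 0.11, adjusted p = 0.905). Bbc3, which encodes the sensor PUMA, had 0.01 (-0.11 to 0.12, adjusted p = 0.952), and its 5 ILPD arrays lay between 7.69 and 7.71. For Bad and Bbc3 these intervals of the deposited signal reached at most 1.11-fold and 1.09-fold. After quantile normalization the differences were -0.10 and -0.07. Without a detection call, the intervals do not show how far the transcripts themselves could have changed.

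**Figure D2:**
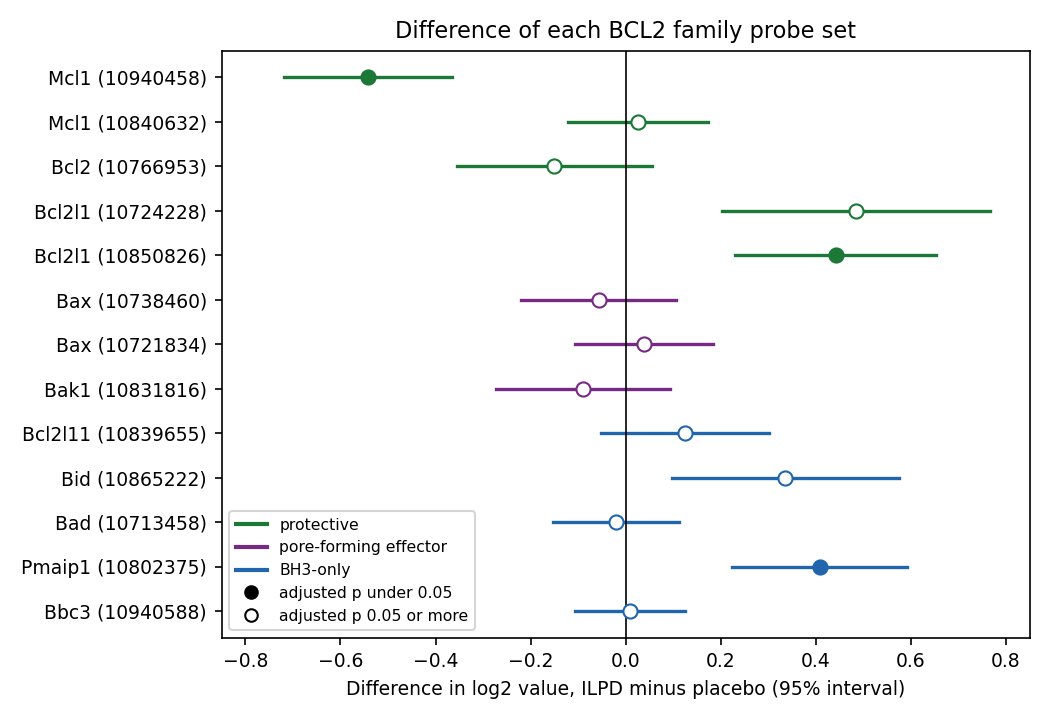
Difference in log2 value between ILPD and placebo (horizontal axis) with its 95% interval from limma for each of the 13 probe sets, coloured by role; filled points passed an adjusted p of 0.05. Mcl1 (10940458, -0.54) lies to the left, and Bcl2l1 (10850826, 0.44) and Pmaip1 (0.41) to the right.

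The comparison of both sides of the family gave no uniform shift. By the brightest probe set, 1 of 3 protective genes fell and 0 rose, and 1 of 7 death-promoting genes rose and 0 fell. The median difference was -0.15 for the protective and 0.01 for the death-promoting genes, beside 0.02 for all probe sets. These medians are the values of single genes, Bcl2 and Bbc3. Among the 1394 probe sets within 0.5 log2 units of the mean of Bcl2, the median difference was -0.12. The protective and death-promoting medians differed by -0.16. That gap was 0.02 after quantile normalization and 0.01 after cyclic loess, so its sign depends on the scaling. Per array, the mean of the protective genes minus that of the death-promoting genes, each gene set to 0 at its placebo mean, ran from -0.06 to 0.04 in placebo. In ILPD arrays 1 to 5 it was -0.30, -0.10, -0.02, -0.28 and -0.16. ILPD array 3 lay within the placebo range and the other 4 were below it. The score was taken on the deposited values only. The sum of the opposite values of Mcl1 and Bcl2l1 enters this score, and no test is given for it since the genes were chosen with results known.

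For members that differed between groups, the correlations given here were weaker with group means removed. Over the 8 arrays Pmaip1 had r = 0.889 with the brighter Bcl2l1 probe set and -0.869 with the brighter Mcl1 probe set. With group means removed these were 0.661 and -0.261. For the dimmer Bcl2l1 probe set, the one that passed, the values with Pmaip1 were 0.846 and 0.367. Some pairs of probe sets that did not pass had higher values with group means removed. These were 0.897 for the brighter Bax probe set with Bbc3 and 0.895 for the dimmer Mcl1 with the brighter Bcl2l1 probe set. Among named genes, the values most like those of Mcl1 were those of Cops7a (r = 0.979, difference -0.29), the mitochondrial chaperonin gene Hspd1 (r = 0.979, -0.80) and Zfpm2 (r = 0.975, -0.37). The most opposed were Ifit2, an interferon-stimulated gene (r = -0.985, difference 0.82), Apol3l1 (-0.982, 0.69) and Slc15a2 (-0.977, 0.27). For Pmaip1 the most alike were Enc1 (r = 0.991, difference 0.84), Slc6a6 (0.982, 0.34) and Sema6b (0.977, 0.80). The most opposed were Uqcr11, a respiratory chain subunit (r = -0.980, difference -0.26), Capn1 (-0.970, -0.12) and Morc4 (-0.966, -0.43). These correlations over 8 arrays include the group difference and share array-wide effects. With group means removed they lay between 0.819 and 0.975 for the alike and between -0.942 and -0.807 for the opposed genes, which were picked from 14497 for extreme values in the same arrays, so high values are largely fixed by that choice.

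Some marker transcripts of white blood cells were higher in ILPD as well. Of 14 measured neutrophil markers, 13 had a positive difference (12 after quantile normalization or cyclic loess), the median was 0.58, and Mmp9 alone passed (0.58, adjusted p = 0.0466, up to 0.162 without placebo array 2, groups overlapping). Lcn2 (1.36, adjusted p = 0.119) and Mmp8 (1.32, adjusted p = 0.0511) had larger differences that did not pass. Elane (0.12), Camp (0.09), Ngp (0.05), Mpo (0.01) and Ltf (-0.12) of the same list differed far less. Their mean signals were low, between the percentiles 18.7 (Ngp) and 44.6 (Elane). After quantile normalization or cyclic loess, 0 neutrophil markers passed. The summed signal of the list, as log2, ran from 11.65 to 12.38 in placebo and from 12.32 to 13.43 in ILPD. Of 13 monocyte and macrophage markers Cx3cr1 rose (0.76, adjusted p = 0.0311, up to 0.123 without placebo array 2), beside 2.29% of all named genes. Ccr2 had 1.21 (adjusted p = 0.0624). In this list 10 differences were positive and 3 negative, with a median of 0.18 and a lowest value of -0.20. After quantile normalization 0 of these 13 passed, and 1 after cyclic loess. The summed signal of this list ran from 13.99 to 14.25 in placebo and from 14.16 to 14.60 in ILPD. Klrd1 (up by 0.52) and Klrb1a (up by 0.46) passed among 13 lymphocyte markers of the T and NK lineages, beside 2.29% of all named genes. Without placebo array 2 their adjusted p in limma was 0.103 and 0.116. After quantile normalization or cyclic loess, 0 of the 13 passed. As deposited, 12 were positive with a median of 0.08. Cd3d (0.03), Cd3g (0.01), Cd4 (0.01), Cd8a (0.09), Nkg7 (0.04) and Prf1 (-0.02) differed little. Without overlap between groups, 4 of the 13 were higher in ILPD, where all named genes gave 8.19%. In the B cell list no gene passed, with the largest differences in Ms4a1 (0.10) and Cd79b (0.09).

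Markers of the resident cells of the ventricle moved in both directions. All 11 cardiomyocyte markers had negative differences as deposited, whereas 6 were positive after quantile normalization and 9 after cyclic loess. Tnnc1 fell by 0.37 (adjusted p = 0.0195; 0.205 after cyclic loess) and Myh6 had -0.19 (adjusted p = 0.165). Their sum ran from 17.09 to 17.14 in placebo and from 16.93 to 17.08 in ILPD. Of 9 endothelial genes Egfl7 passed (up by 0.60, adjusted p = 0.0282; 0.104 without placebo array 3), while Cldn5 had the opposite sign (-0.42, adjusted p = 0.133). The fibroblast markers Lum (-0.35) and Tcf21 (0.25), the mural cell markers Pdgfrb (0.50) and Tagln (0.30), and Alas2 (-0.10) and Ppbp (0.09) of red cells and platelets had the largest differences of their lists, in which no gene passed.

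The correlations given here are a selection from those of every member probe set with every marker sum. The sums add signals on the linear scale, so the brightest markers weigh most. In placebo the fibroblast sum ran from 13.99 to 14.06, and Dcn alone from 13.59 to 13.60. With group means removed, Mcl1 on its brighter probe set had r = 0.570 with the cardiomyocyte sum and -0.505 with the endothelial sum. It had 0.494 with the B cell and -0.475 with the neutrophil sum. The dimmer Mcl1 probe set had -0.10 with the cardiomyocyte sum. Pmaip1 had -0.827 with the fibroblast, -0.526 with the cardiomyocyte, -0.457 with the T and NK cell and 0.377 with the neutrophil sum. The dimmer Bcl2l1 probe set had -0.549 with the neutrophil sum and -0.612 with that of red cells and platelets, and Bid had 0.846 with the monocyte and macrophage sum. The part of these cells in the differences of the members was not tested.

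Relatives of the family outside the 10 genes gave no call. Of 14 listed, 13 were measured under their own name, 0 rose and 0 fell in limma, and 1 had an unadjusted p under 0.05, where 20.9% of all named genes did. Bcl2a1, a protective relative known from blood cells, had the largest difference, 0.30 (95% interval -0.15 to 0.75, adjusted p = 0.480), with ILPD arrays from 7.43 to 8.51 around placebo arrays from 7.59 to 7.80. Bcl2l13 was next, -0.23 (-0.45 to -0.01, adjusted p = 0.256), and was the one with the low unadjusted p. The list's median was 0.03, beside 0.02 for all probe sets, and turned to -0.04 after quantile normalization and -0.03 after cyclic loess.

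Of 16 measured genes for released factors, caspases and their inhibitors, 1 fell and 0 rose, beside 1.17% and 2.29% of all named genes. An unadjusted p under 0.05 was reached by 7 of the 16, against 20.9% of all named genes. Groups did not overlap for 4 genes that were lower and 2 that were higher in ILPD (5.83% and 8.19% of all named genes). The gene that fell was Casp8, the initiator caspase of death receptors, which cuts Bid and so acts upstream of the mitochondrial pore. It went from 8.16 ± 0.16 (SD, n = 3) to 7.38 ± 0.23 (SD, n = 5), a fall of 0.78 (SE 0.13, limma adjusted p = 0.0163), which missed the threshold when placebo array 2 (0.0778) or 3 was left out. Casp8 and Bid thus had opposite signs, of which the second did not pass. Birc3, an inhibitor of apoptosis, had the largest positive difference, 0.36 (95% interval 0.03 to 0.69, adjusted p = 0.233). The list's median was -0.12 (-0.06 after quantile normalization, -0.04 after cyclic loess). Without ILPD array 5 the list gave 4 calls (Aifm1, Casp8, Xiap and Birc3), without ILPD array 4 it gave 2, and without placebo array 2 or 3 it gave 0.

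Among 33 measured factors and enzymes that act on the members, 0 rose and 1 fell, beside the same 2.29% and 1.17%. An unadjusted p under 0.05 was reached by 15 of the 33, of all named genes by 20.9%. After quantile normalization or cyclic loess, 10 of the 33 reached it. Without overlap, 8 were lower and 1 was higher in ILPD, beside 5.83% and 8.19% of all named genes. Bag3, a cochaperone that binds BCL2 and Hsp70, went from 12.92 ± 0.29 (SD, n = 3) to 12.17 ± 0.07 (SD, n = 5), a fall of 0.74 (SE 0.11, limma adjusted p = 0.0102), which missed the threshold when placebo array 2 or 3 was left out (0.0517 for array 3). The kinase Akt1, which phosphorylates Bad, had -0.38 (95% interval -0.68 to -0.09, adjusted p = 0.163). The list's median was -0.12 (-0.04 after quantile normalization, -0.03 after cyclic loess). Huwe1 and Fbxw7, known regulators of Mcl1, had no probe set under their name in the annotation used here.

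**Figure D3:**
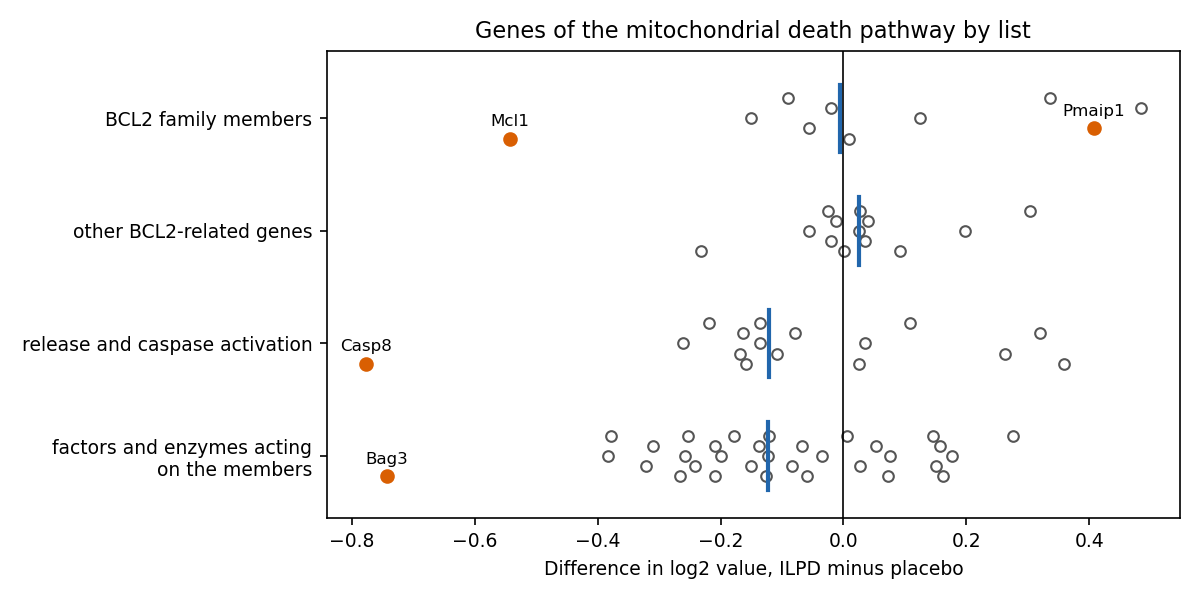
Difference in log2 value between ILPD and placebo (horizontal axis) for each gene, by its brightest probe set, in the BCL2 family members and 3 related lists. Orange points with names passed an adjusted p of 0.05, blue bars are medians (-0.01, 0.03, -0.12 and -0.12 from top to bottom), and vertical offsets only separate points.

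The dependence on single arrays was uneven over the family. The Mcl1 call held in 12 of 14 alternatives, those of Pmaip1 in 7 and of the dimmer Bcl2l1 probe set in 6. The placebo group weighs most: leaving out placebo array 2 or 3 left 0 of the 10 genes called, and the array-wide count fell from 811 to 172 and 241. Signs of these 3 probe sets stayed the same in all 14 alternatives. Signs of Bbc3, Bad, both Bax probe sets and the dimmer Mcl1 probe set did not: the sign held in 11 of 14 for Bbc3, 13 for Bad, 13 and 11 for the brighter and dimmer Bax probe sets and 10 for Mcl1.

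**Figure D4:**
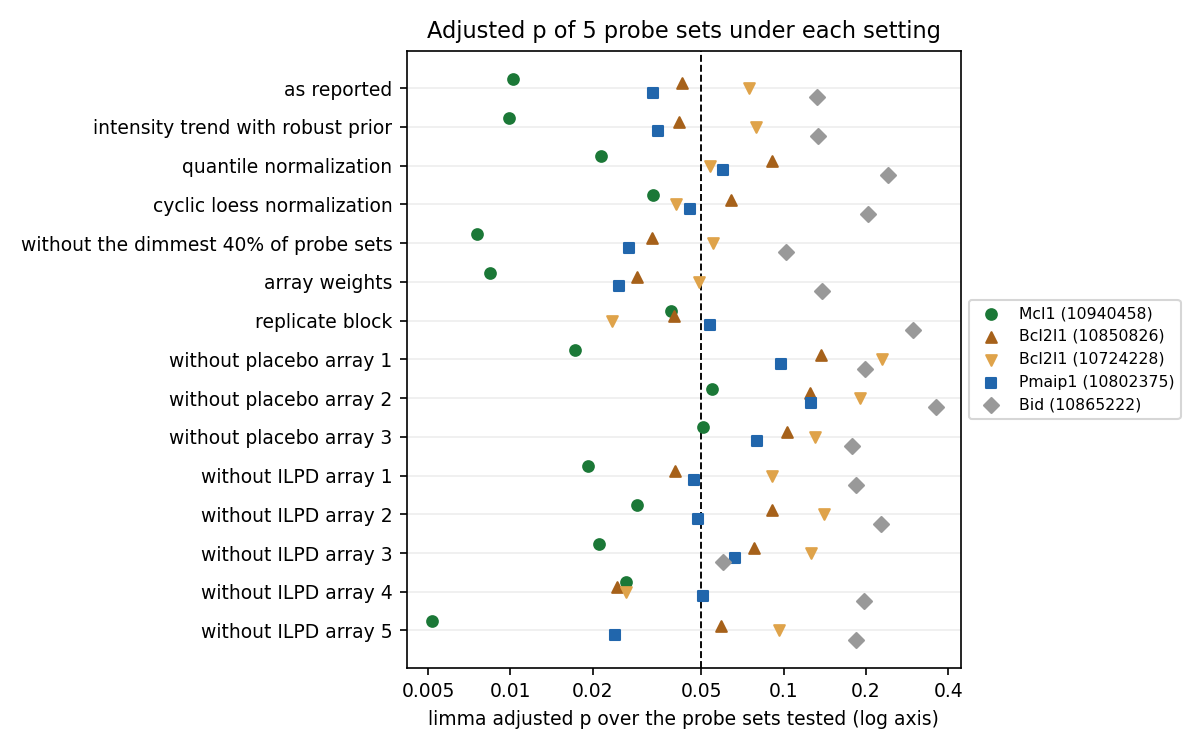
Adjusted p in limma (horizontal log axis) of 5 probe sets as reported and under each of 14 alternatives (rows), with the threshold of 0.05 as a dashed line. Mcl1 (circles) is right of the line in 2 alternatives, without placebo array 2 and without placebo array 3, whereas Bid (diamonds) is right of it in all.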

How the data were processed

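Biotin-labelled RNA from left ventricle was measured on 8 Affymetrix arrays, per the labels' protocols. The authors deposited log2 values for 28826 probe sets. Their scale was settled from the range; how they were normalized is not stated in the labels, and R 2.14.2 is named in the submitters' processing notes. Platform annotation gave 1 symbol for 15209 probe sets (15178 matched RefSeq by gene ID), several for 306 and none for 13311. No detection call was used. The groups were compared by limma 3.58.1 in R 4.3.3 (lmFit, eBayes, no covariates), two-sided, with p adjusted by Benjamini-Hochberg across the whole array and called under 0.05; the script was tested on simulated data. A gene was represented by its probe set with the highest mean. Probe sets of 1 gene were compared by exact permutation of the 8 arrays. Intervals are 95% intervals of limma's difference. Promoter bases came from RefSeq (GRCr8).

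The members and lists were chosen with earlier results of these data known. Named were all members, and of each list the called genes and the 2 with the largest absolute difference; for called members, also the 3 most alike and 3 most opposed genes. Genes named beyond that rule and the motifs were chosen after values were seen. These genes are Aifm1, Xiap, Pim3, Huwe1, Fbxw7, Elane, Camp, Ngp, Mpo, Ltf, Cd3d, Cd3g, Cd4, Cd8a, Nkg7, Prf1 and Dcn. Tried as alternatives were a robust intensity trend, quantile and cyclic loess normalization, removal of the dimmest 40%, array weights, a replicate block, other thresholds, averaging or pooling the probe sets per gene, and omission of each array. The one for linear values was not needed. Plots were made in Python 3.11.15 with matplotlib 3.10.9.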

Additional observations from a re-analysis of the deposited data

Results flagged for a closer look

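Of 38 probe sets named by the rule, 1 had an ILPD array far from the other 4: Mmp9 (10842239), a neutrophil marker and no family member, was 7.07 in ILPD array 3 and 7.49 to 7.63 in the others. Chance flags about 1 in 20 groups. None of the 13 member probe sets had such an array.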

How the results depend on the processing

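The number of called probe sets was 811. It was 484 after quantile normalization and 172 to 975 when leaving out 1 array. With the replicate block, in effect without ILPD arrays 4 and 5, it was 459. Called family genes numbered 2; they were 1 after quantile normalization (Mcl1), 1 with probe sets averaged per gene (Pmaip1), 0 with a difference of at least 1.5-fold required, and 0 to 2 when leaving out 1 array. They were 3 (Bcl2l1 added) after cyclic loess, with array weights, at an adjusted p of 0.1 and when any probe set counted. Under the replicate block and without ILPD array 4 they were 2, Mcl1 and Bcl2l1, with Pmaip1 lost. Protective genes called were 2 after cyclic loess, with array weights and with the replicate block (Mcl1 and Bcl2l1 each time), 0 with probe sets averaged, and 0 to 2 without 1 array. Death-promoting genes called were 0 after quantile normalization and with the replicate block, and 0 to 1 without 1 array. The list of released factors, caspases and their inhibitors ranged from 0 to 4 calls without 1 array. The list of acting factors ranged from 0 to 1, with 2 under the replicate block (Pim3 and Bag3). The relatives stayed at 0 throughout the array omissions, and the gap between protective and death-promoting medians ran from -0.21 to -0.09. Without 1 array the probe set gap ran from -0.61 to -0.53 for Mcl1, from 0.02 to 0.08 for Bcl2l1 and from -0.12 to -0.06 for Bax; after quantile normalization and cyclic loess it was -0.35 and -0.34, 0.17 and 0.17, and -0.09 and -0.08. The causes of these changes were not tested, though leaving out an array lowers the sample number and a fold limit only removes calls.

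The labels state no pairing of samples by replicate number. Deviations of same-numbered arrays correlated at 0.221, -0.064 and -0.098, and placebo array 2 correlated best with ILPD array 3 (0.247). Deviations of the few placebo arrays from their own mean are bound to each other, so these correlations cannot decide whether pairs exist. Under the replicate block, ILPD arrays 4 and 5 had no placebo array of the same number. Their own blocks absorbed them, so the difference rested on arrays 1 to 3 of each group. The limma adjusted p was then 0.0387 for Mcl1, 0.0539 for Pmaip1, and 0.0235 and 0.0398 for the brighter and dimmer Bcl2l1 probe sets.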
